A study of Homo sapiens with 8 samples.

Results

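The genes described here encode the matrix metalloproteinases (MMP), the ADAMTS proteases and the tissue inhibitors of metalloproteinases (TIMP). A gene was included when its symbol in the probe annotation was MMP, ADAMTS or TIMP followed by digits, and no measured value entered this choice. There were 44 such genes among 17701 annotated genes, 22 of them MMP, 18 ADAMTS and 4 TIMP, with 1366 of 474411 probes and 7 to 47 probes per gene. The cells were A549, an established human lung adenocarcinoma line, either unstimulated or stimulated for at most 2 h with 2 ng/ml of TGFβ1. The labels give only this upper limit, a shorter time also appears in the study's text, and the exact time on these arrays is not settled. Each condition had 2 replicates according to the sample titles, which do not say whether the cells were cultured separately. Chromatin precipitated with the SMAD3 antibody (SMAD3 IP, Cy5) was hybridised together with chromatin of an anti-flag mock IP (Cy3). There were 2 slides with different probes, which gave 8 arrays. A further array replicate that the study describes was not analysed here. The dyes were not swapped, so dye and antibody cannot be told apart, and the identity of the cells cannot be checked on precipitated genomic DNA.

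MMPs are zinc-dependent enzymes that cleave collagens, elastin, laminins and other proteins outside the cell. ADAMTS proteases carry thrombospondin repeats and cleave proteoglycans such as aggrecan, procollagens and von Willebrand factor, and TIMPs bind the active site of these enzymes and block it. SMAD3 enters the nucleus after activation of the TGFβ receptor and binds DNA, often beside AP-1 factors, and TGFβ is known to change the expression of several MMP and TIMP genes in epithelial cells and fibroblasts.

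The promoter sequences of 4 members are shown because their promoter windows changed most clearly or because they differ in base composition. RefSeq promoters (GRCh38.p14) were matched by symbol for 25 of the 44 genes, with 26 entries. Only the 250 bases before the annotated start are printed, 5′ to 3′, for TIMP4 (chr3:12158913-12159162, minus strand), ADAMTS17 (chr15:100341976-100342225, minus strand), MMP7 (chr11:102530748-102530997, minus strand) and MMP20 (chr11:102625333-102625582, minus strand). Capitals mark the AP-1 element TGANTCA and the SMAD box AGAC, with its reverse complement GTCT.
TIMP4: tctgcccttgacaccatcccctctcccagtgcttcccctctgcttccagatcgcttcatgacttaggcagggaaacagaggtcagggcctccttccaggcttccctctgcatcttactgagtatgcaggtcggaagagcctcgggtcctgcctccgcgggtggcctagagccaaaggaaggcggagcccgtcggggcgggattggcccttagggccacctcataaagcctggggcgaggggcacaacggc
ADAMTS17: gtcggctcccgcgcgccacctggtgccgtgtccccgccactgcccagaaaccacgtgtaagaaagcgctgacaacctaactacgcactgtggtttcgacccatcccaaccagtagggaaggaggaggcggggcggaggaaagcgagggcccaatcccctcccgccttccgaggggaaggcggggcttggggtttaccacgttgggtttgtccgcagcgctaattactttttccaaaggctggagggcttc
MMP7: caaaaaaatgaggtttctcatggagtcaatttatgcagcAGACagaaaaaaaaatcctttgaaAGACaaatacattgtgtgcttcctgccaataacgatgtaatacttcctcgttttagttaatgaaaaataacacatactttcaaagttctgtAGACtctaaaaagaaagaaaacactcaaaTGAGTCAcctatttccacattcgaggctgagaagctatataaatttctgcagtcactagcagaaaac
MMP20: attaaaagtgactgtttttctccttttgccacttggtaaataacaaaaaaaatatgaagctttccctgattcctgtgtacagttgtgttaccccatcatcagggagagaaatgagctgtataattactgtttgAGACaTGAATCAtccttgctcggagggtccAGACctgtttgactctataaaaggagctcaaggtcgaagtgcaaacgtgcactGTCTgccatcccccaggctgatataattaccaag
The promoters of TIMP4 and ADAMTS17 are rich in G and C (62.8% and 62.4%) and held none of these letters in the printed stretch. The MMP7 promoter has 33.6% G and C, 1 AP-1 element that starts 67 bases before the start of transcription, and 3 SMAD boxes. The MMP20 promoter has 41.6% G and C, 1 AP-1 element and 3 SMAD boxes. Over 35116 RefSeq promoters of the same length, 6.57% held TGANTCA, 77.5% held AGAC or GTCT and 0.182% held the SMAD palindrome GTCTAGAC. Of the 26 member entries, 4 held the AP-1 element, 19 a SMAD box and 0 the palindrome. The motifs were searched on both strands. The palindrome itself consists of SMAD boxes, and an AP-1 element and a SMAD box can share letters. These matches describe the letters only.

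For every probe the SMAD3 IP signal was divided by the mock IP signal. The log2 ratio was set relative to the array median, so that a value of 0 is the array median. Channel changes given below are log2 intensities, each relative to the median of that channel on the array. A probe counted as measured when it was well above background in both channels in all 4 replicates. On a single array both channels passed this limit at 38.7% to 51.5% of the probes. Over the measured probes of a slide, replicates of a condition correlated with r = 0.89 to 0.98, but a replicate of one condition and one of the other only with r = 0.29 to 0.34. In the mock IP channel alone the latter was 0.60 to 0.63, against 0.74 to 0.78 in the SMAD3 IP channel. The conditions thus differed over the whole array, in the mock IP as well. The tests measure the spread between 2 replicates per condition.

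Among the members, 509 of 1366 probes (37.3%) were measured, compared with 33.9% of all probes. The share differed widely between genes. The 9 MMP genes of the chromosome 11 cluster (MMP1, MMP3, MMP7, MMP8, MMP10, MMP12, MMP13, MMP20 and MMP27) had 21 of 259 probes measured (8.11%), and 61.8% of their probes were not well above background in either channel of any replicate. The other MMP genes had 47.0% of probes measured, the ADAMTS genes 41.6% and the TIMP genes 46.3%. The lowest share was that of MMP3, a stromelysin, with 0 of 26 probes, and the highest that of ADAMTS10 with 6 of 7, followed by MMP17, a membrane-anchored MMP, with 28 of 33. The ADAMTS10 probes lay at least 28552 bp downstream of the annotated start.

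The measured share was higher where the promoter held more G and C. Over all genes with a RefSeq promoter and at least 4 probes, 9.27% of the probes were measured where the 250 bases upstream held up to 40% G and C, 31.2% at 50% to 60%, and 42.0% above 70%. Over the 26 member entries the correlation between the G and C content and the measured share was 0.57 (Pearson) and 0.57 (Spearman). Over 10941 genes it was 0.43 (Pearson) and 0.43 (Spearman). ADAMTS10 enters the member value more than once, with 78.4% and 63.2% G and C, although its probes lie far from these promoters. The genes share arrays and hybridisations, and the correlations are a description. The few measured probes of the chromosome 11 cluster limit every value given for these genes below, and a level below background is only a bound.

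**Figure D1:**
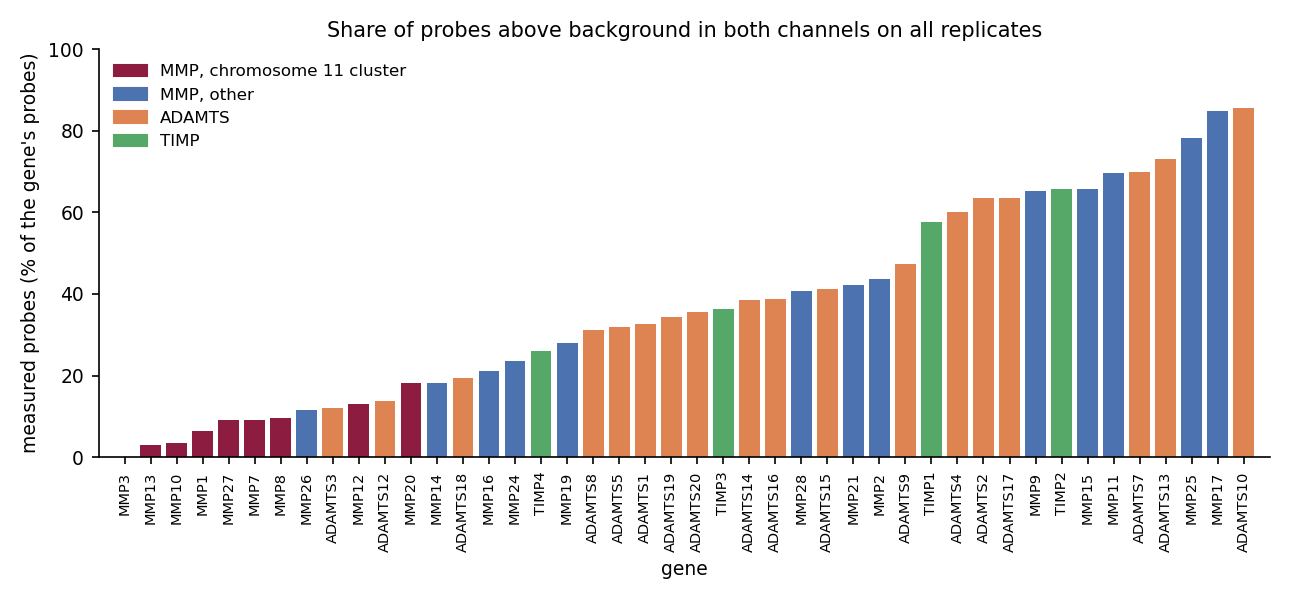
Share of the probes of each of the 44 genes (bars, percent, axis from 0) that were well above background in both channels in all 4 replicates. The genes of the chromosome 11 MMP cluster lie at the low end, from 0% for MMP3 to 18.2% for MMP20, and ADAMTS10 and MMP17 lie at the high end with 85.7% and 84.8%.

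For each gene a promoter window that began 2000 bp before and ended 800 bp after the annotated start was averaged over its measured probes. A window value was obtained for 41 members, from 1 to 13 probes, and rested on a single probe for 6 of them (MMP7, MMP8, MMP10, MMP12, MMP14 and MMP27). ADAMTS10, MMP3 and MMP13 had no measured probe there.

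In unstimulated cells the SMAD3 IP exceeded the mock IP in 12 of the 41 windows and was below it in 16 (limma against the array median, Benjamini-Hochberg adjusted p under 0.05). Over all windows 68.9% were called in either direction, 32.6% higher and 36.3% lower, and the members' share is near this background. After stimulation 7 member windows were higher and 18 lower, compared with 69.7% called, 26.8% higher and 42.9% lower, over all windows. The position of 0 decides these directions. The share of higher windows among the called member windows was 42.9% unstimulated and 28% stimulated with the array median as 0. It was 64.5% and 58.8% with the median of measured probes as 0, 71.0% and 70.6% after loess, and 70% and 68.6% without centring. The same shift was seen over all windows.

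Of the 41 windows, 8 rose and 16 fell, a called share of 58.5%, while 53.6% of all windows were called, 20.8% higher and 32.8% lower. The median change was -0.21 for the members and -0.18 for all windows. Among the MMP genes 5 of 20 windows rose and 8 fell, among the ADAMTS genes 2 of 17 rose and 7 fell, and of the 4 TIMP windows 1 rose and 1 fell. With the 3 other centrings, 9 member windows rose and 15 fell, since MMP15 gained a call and MMP8 lost it, and the median of all windows was -0.05 to -0.02. With normexp background correction (an estimate of the local background is removed from the raw signals) 2 member windows rose (MMP16 and TIMP4) and 1 fell (ADAMTS17), while 4.33% of all windows rose and 5.42% fell. Without the first stimulated replicate 5 rose and 12 fell. The values of single genes below are given relative to the array median.

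**Figure D2:**
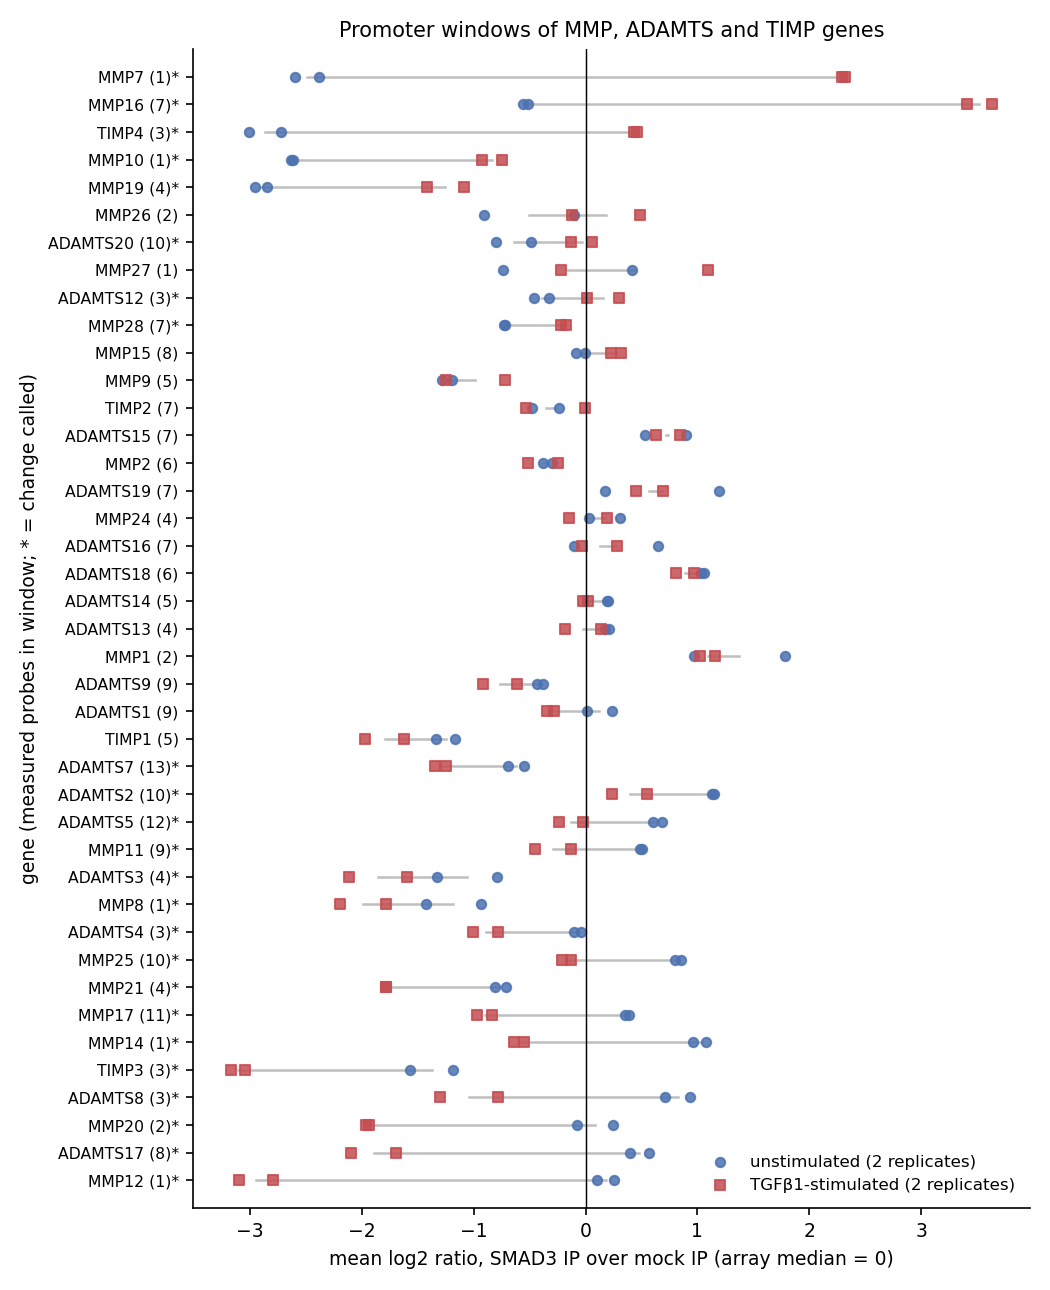
Mean log2 ratio (SMAD3 IP over mock IP) in the promoter window of the 41 genes with a value, ordered by the change. Each point is 1 replicate (circles unstimulated, squares TGFβ1-stimulated), grey lines join the means, the number of measured probes stands in parentheses and an asterisk marks a called change. MMP7, MMP16 and TIMP4 lie at the top, with rises of 4.80, 4.05 and 3.31, and MMP12 and ADAMTS17 at the bottom, with falls of 3.12 and 2.38.

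Of the inhibitors, TIMP4 rose and TIMP3 fell. TIMP4, the TIMP with the most restricted tissue distribution, had window log2 ratios of -3.01 and -2.72 in the unstimulated replicates and 0.46 and 0.43 in the stimulated ones. The conditions did not overlap, and the change was 3.31 ± 0.19 (SE, adjusted p = 2.55e-05). The mock channel fell by 3.25 on the log2 scale, and the mean of the SMAD3 channel differed by -0.05. That mean hides opposite moves, since the SMAD3 channel changed by 1.35, 1.39 and -2.90 at 190, 295 and 533 bp. All 3 measured probes of the window, 190, 295 and 533 bp downstream of the start, rose by 1.71 to 4.73. The 3 unmeasured probes between -552 bp and the start lay at log2 ratios of -7.69 to -4.69 in unstimulated cells and -1.41 to 0.94 in stimulated cells. Over these 6 neighbouring probes the mock signal was well above background in both unstimulated replicates at every position and fell by 2.03 to 6.87. At 1563 bp downstream, beyond the window, the ratio fell by 2.35.

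TIMP3, an inhibitor that stays bound to the matrix, moved the other way. The window values were -1.56 and -1.18 unstimulated and -3.16 and -3.04 stimulated, so that all 4 lay below the array median. The change was -1.73 ± 0.20 (SE, adjusted p = 0.000516), and all 3 measured window probes fell, by 1.04 to 2.83. Over the window the SMAD3 channel changed by -0.77 and the mock channel by 0.89 on the log2 scale. At the unmeasured probes at -596 and -477 bp the mock IP rose by 7.08 and 8.03 and the SMAD3 IP by 2.26 and 1.46. Outside the window, the probe at -3015 bp rose by 4.84, with values of -2.75 and -2.84 before and 2.09 and 2.01 after stimulation. It was the only one of the 16 measured TIMP3 probes that was called higher, against 10 called lower.

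TIMP1, which inhibits most secreted MMPs, had window values of -1.33 and -1.16 unstimulated and -1.97 and -1.62 stimulated. The stimulated replicates were the lower ones, but the change of -0.55 ± 0.20 missed the threshold (adjusted p = 0.0557). Without the second stimulated replicate it was -0.72. The TIMP1 window was called lower in 6 of 15 alternatives, and the change ranged from -0.79 to -0.16 over all 15. Single probes moved far more. The TIMP1 probe at -2785 bp rose from -3.93 and -3.58 to 4.28 and 3.94, a change of 7.86 ± 0.26 (adjusted p = 0.000267), with the SMAD3 channel 4.23 higher and the mock channel 3.71 lower on the log2 scale. Further upstream, the probe at -3682 fell from 2.19 and 2.14 to -4.27 and -3.00. Of the 19 measured TIMP1 probes 6 rose and 11 fell. For single probes the background of called changes was 53.9%, 23.2% higher and 30.7% lower. TIMP2, an inhibitor that also takes part in the activation of MMP2, showed a window change of 0.09 ± 0.23 (adjusted p = 0.767). Its probes ranged from -4.79 to 4.85, and 8 rose and 6 fell among 21.

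Among the membrane-type MMPs, which are tethered to the cell surface, MMP16 showed the clearest rise. Its window stood at -0.56 and -0.51 in unstimulated cells and at 3.63 and 3.41 after stimulation. Both stimulated replicates were far above both unstimulated ones, and the change was 4.05 ± 0.18 (SE, adjusted p = 1.13e-05). The SMAD3 IP rose by 4.76 on the log2 scale, while the mock IP differed by 0.82. All 7 measured probes of the window rose, by 1.28 to 9.77. The highest was the probe at -1024 bp, with log2 ratios of -0.78 and 0.04 unstimulated and 9.36 and 9.44 stimulated.

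The rise covered a continuous stretch of the MMP16 promoter. From -1494 to 1257 bp, the SMAD3 IP was well above background in both stimulated replicates at all 14 consecutive probes, and in both unstimulated replicates at 7. Of the 24 MMP16 probes outside the stretch, 1 was above background in both stimulated replicates. The limits of the stretch were set after its values had been seen. The 7 probes within it that did not count as measured had log2 ratios of -1.19 to 0.83 unstimulated and 5.0 to 9.68 stimulated. In 2 of the 14 probes the mock IP was not above background in either stimulated replicate, so that the ratio there is a bound. The mock IP was above background in both stimulated replicates at 9 of the 14. At 484, 907, 1075 and 1257 bp neither channel was above background in either unstimulated replicate, so those unstimulated ratios carry no level. The 3 neighbouring measured probes around -575 bp had a mean of 5.93 after stimulation, higher than in 99.5% of 14640 genes (median 0.76), and -0.04 before. MMP16 was called higher in all 15 alternative analyses of its window, with changes of 2.80 to 5.0.

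Of the 6 membrane-type genes MMP16 alone rose and 3 fell. MMP14, the enzyme that activates MMP2 at the cell surface, had only 1 measured window probe, 333 bp downstream of the start. It read 1.08 and 0.96 unstimulated and -0.64 and -0.55 stimulated. The change was -1.61 ± 0.18 (adjusted p = 0.00038), with the SMAD3 channel lower by 1.58 on the log2 scale and the mock channel at -0.04. The MMP14 call was lost with normexp (-0.65), without the filter on dim probes (-0.0444), with 1 channel above background (-0.56) and over all annotated probes (-0.0522). The next measured probe downstream, at 825 bp, rose by 3.91. MMP17 had 11 of 11 window probes measured, and the window fell from 0.39 and 0.35 to -0.97 and -0.84 (change -1.27 ± 0.18, adjusted p = 0.00105). The MMP17 call was lost with normexp (-0.78), over all annotated probes (-0.26) and with the median of the probes (-0.26). Its single probes went both ways, with 8 rising and 12 falling among 28. The probe at -2961 fell by 7.27 and the probe at 1303 rose by 6.62, and the mock channel moved by 9.42 and -7.05 in these, the SMAD3 channel by 2.22 and -0.37. The window of MMP15 did not pass the test (0.32 ± 0.18, adjusted p = 0.165), but passed it with each of the 3 other centrings, with changes of 0.45 to 0.48. Of its 25 probes 7 rose and 11 fell.

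Neither gelatinase passed the test in its window. The MMP2 window read -0.38 and -0.30 unstimulated and -0.52 and -0.25 stimulated, and the replicates overlapped. MMP2 was called higher without the filter on dim probes (0.73) and lower over all annotated probes (-0.59). The MMP9 window read -1.19 and -1.28 unstimulated and -0.72 and -1.25 stimulated, with a change of 0.25 ± 0.22 (adjusted p = 0.377). Over all annotated probes MMP9 was called higher, with a change of 2.23. Further upstream, MMP9, gelatinase B, held the probe with the largest change of all 509 measured member probes. At -3825 bp, beyond the window, the log2 ratio went from -2.89 and -2.82 to 8.69 and 7.70, a change of 11.05 ± 0.38 (adjusted p = 0.000267). Both channels moved in this probe, with the SMAD3 IP 7.03 higher and the mock IP 4.09 lower on the log2 scale.

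The neighbours of this MMP9 probe rose as well. The probes at -3651 and -3527 changed by 6.36 and 6.39, in both cases through a lower mock IP (-5.41 and -5.97), while the SMAD3 channel differed by 1.02 and 0.49. The mean of the 3 probes went from -4.41 to 3.52, and the stimulated value was higher than in 98.5% of genes. From -3942 to -2218 bp, 7 consecutive probes were above background in the SMAD3 IP of both stimulated replicates, compared with 4 in the unstimulated ones. The mock IP was above background in both replicates at 5 of them unstimulated and at 4 stimulated. This region was again chosen after its values had been seen, and its limits are not edges of SMAD3 IP detection. The SMAD3 IP was also above background in both stimulated replicates at the next probes outside, at -5138, -4556, -524 and -390 bp. Over all of MMP9, 7 of 15 probes rose and 1 fell.

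**Figure D3:**
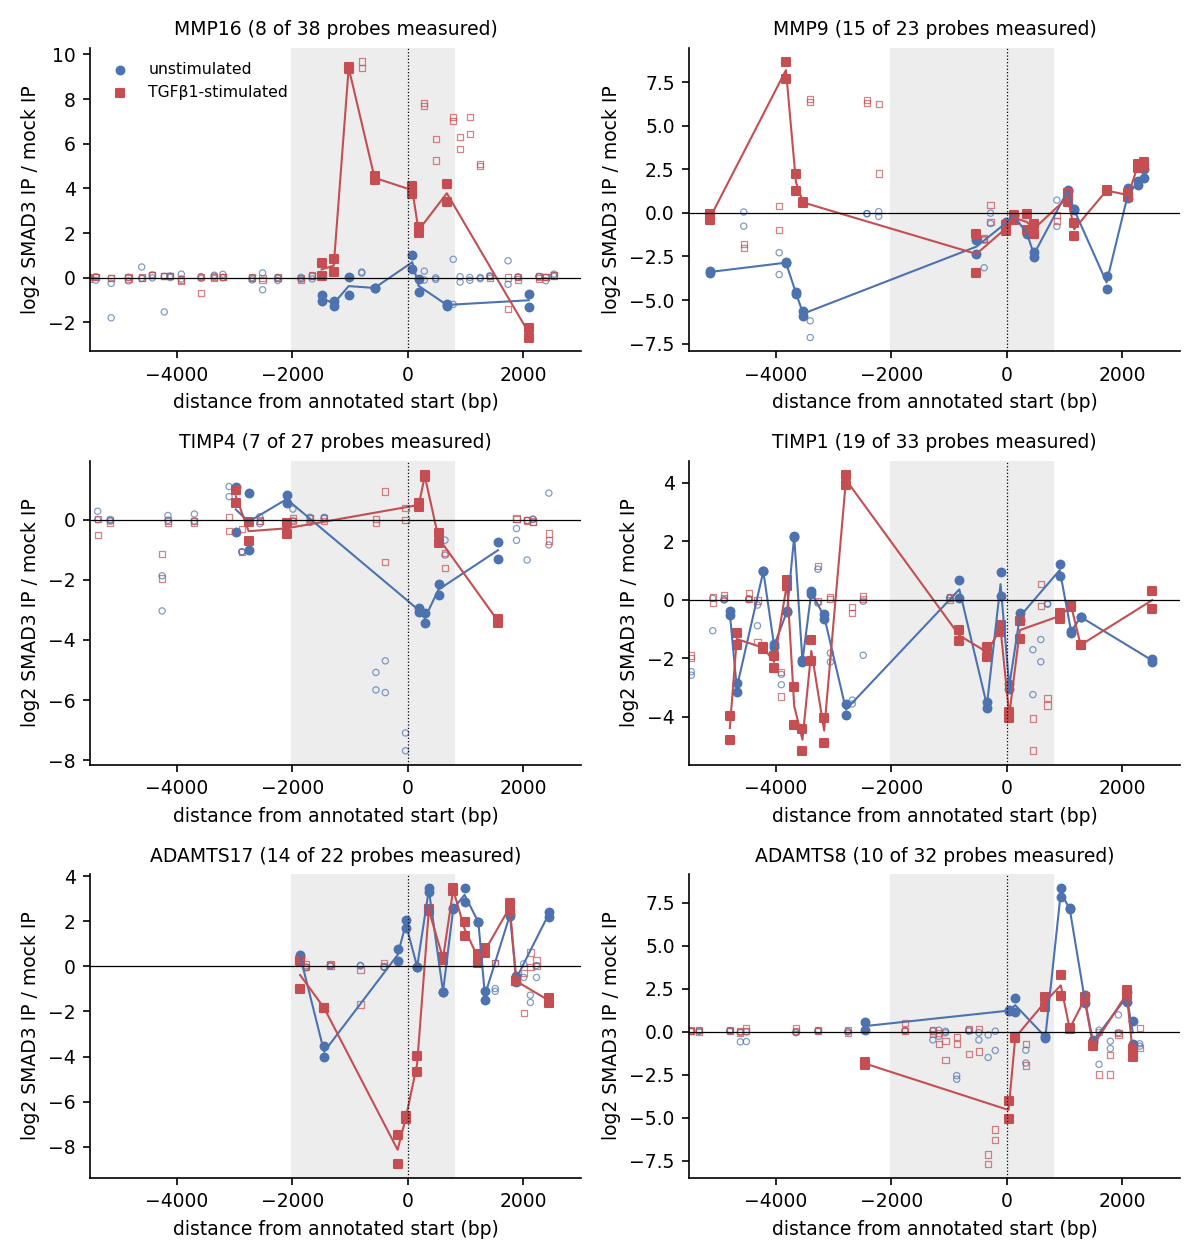
Log2 ratio (SMAD3 IP over mock IP) against the distance from the annotated start (bp) for 6 genes. Filled symbols are measured probes (circles unstimulated, squares stimulated, 1 symbol per replicate, lines through the means), open symbols are probes that did not count as measured, grey shading is the promoter window, and the vertical scales differ. MMP16 rose at all 7 window probes, MMP9 rose by 11.05 at -3825 bp, and ADAMTS17 changed at the start, by -8.64 at -176 bp.

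In the chromosome 11 cluster, the secreted enzymes gave few values. MMP7, matrilysin, had 1 measured window probe, 156 bp downstream of the start and next to the promoter printed above. It read -2.38 and -2.60 unstimulated and 2.29 and 2.32 stimulated, the largest window change of the members at 4.80 ± 0.18 (adjusted p = 6.9e-06). The SMAD3 channel rose by 3.68 and the mock channel fell by 1.19 on the log2 scale. The 8 other MMP7 probes in the window were not measured, and their SMAD3 IP was above background in no replicate of either condition. They include the neighbours on both sides of the measured probe, at -8 and 272 bp. The MMP7 call was lost with normexp, and the change ranged from 0.51 to 5.06 over 14 alternatives. The second measured MMP7 probe, 2390 bp downstream, rose by 3.44, with a mock channel lower by 4.11 and a SMAD3 channel at -0.60.

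MMP12, the macrophage elastase, fell most. The only measured probe of its window, at -905 bp, read 0.26 and 0.10 unstimulated and -3.09 and -2.80 stimulated (change -3.12 ± 0.19, adjusted p = 3.47e-05). The mock channel rose by 3.59 there and the SMAD3 channel by 0.54. The MMP12 call was lost with normexp and without the filter on dim probes, and the change ranged from -3.27 to -0.31 over 13 alternatives. Outside the window, the probes at -2090 and 2054 fell by 2.00 and 3.15. MMP20, enamelysin, whose AP-1 element and SMAD boxes are shown above, fell from 0.24 and -0.07 to -1.94 and -1.96 over 2 probes. The change was -2.04 ± 0.19 (adjusted p = 0.000196). The MMP20 call was lost with normexp and without the filter on dim probes, and the change ranged from -2.20 to -0.18 over 14 alternatives. MMP10, a stromelysin, rose from -2.61 and -2.63 to -0.75 and -0.93 in 1 probe (change 1.78 ± 0.18, adjusted p = 0.000252) and stayed below the array median. With probes above background in at least 1 channel its change was -1.60. MMP8, the neutrophil collagenase, fell by 0.81 in 1 probe (SE 0.24, adjusted p = 0.0281) that was not called in the fit of single probes, and leaving out any 1 replicate other than the second unstimulated one ended the call. The MMP8 call was also lost with each of the 3 other centrings (-0.67 to -0.54), with normexp and with the median of the probes.

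MMP1, the interstitial collagenase, had the highest unstimulated window of the members. The values were 1.78 and 0.97 before and 1.02 and 1.16 after stimulation. The conditions overlapped, and the change was -0.28 ± 0.28 (adjusted p = 0.422). The value rested on 2 probes, and the probe at -405 bp read 2.98, 2.86, 2.57 and 3.24, the same in both conditions within the replicate spread, while the probe at -532 bp lay between -0.92 and 0.58. MMP27 had 1 window probe with overlapping replicates (0.60 ± 0.50, adjusted p = 0.344), and without the second unstimulated replicate its change was 1.18 and passed. Downstream, its probe at 1734 bp rose by 6.58, from -1.99 and -2.05 to 4.05 and 5.07, and the SMAD3 channel was higher there by 6.10.

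Outside the cluster, MMP19 rose from -2.95 and -2.84 to -1.42 and -1.08 (1.64 ± 0.20, adjusted p = 0.000556). All 4 values were negative. Both channels fell after stimulation, the mock IP by 3.03 and the SMAD3 IP by 1.32 on the log2 scale. Its probe at -2673 bp changed by -7.0 with the mock IP higher by 8.41. MMP26, the second matrilysin, changed by 0.69 ± 0.32 (adjusted p = 0.111) over 2 probes, and its replicates overlapped. Without the first unstimulated replicate it was 1.09 and passed.

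Of the 17 ADAMTS windows 2 rose and 7 fell, beside 20.8% and 32.8% of all windows. ADAMTS17, a relative of the fibrillin-associated ADAMTS10, fell from 0.57 and 0.40 to -2.09 and -1.70 over 8 probes, a change of -2.38 ± 0.21 (adjusted p = 0.000142). The fall lay at the start. The probe at -176 bp went from 0.78 and 0.24 to -8.76 and -7.50. The probe at -33 bp went from 2.03 and 1.72 to -6.78 and -6.64. In these, the mock IP rose by 9.91 and 7.94 on the log2 scale and the SMAD3 IP differed by 1.34 and -0.57. At 162 bp downstream the ratio fell by 4.31, there with a SMAD3 channel lower by 3.82. The other window probes of ADAMTS17 differed by -0.90 to 1.94. ADAMTS17 was called lower in all 15 alternatives, with changes of -5.61 to -1.21.

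ADAMTS8, a proteoglycanase, fell from 0.94 and 0.71 to -1.30 and -0.78 over 3 probes (-1.87 ± 0.23, adjusted p = 0.000635). At the start, the probe 33 bp downstream fell by 5.77 with the mock IP higher by 4.95. The unmeasured probes at -320 and -197 had stimulated ratios of -7.68 to -5.67, and the mock IP rose over these 3 neighbours by 4.95 to 10.14. The SMAD3 IP also rose at -320 and -197 bp, by 2.73 and 4.76, and differed by -0.75 at 33 bp. At -320 and -197 bp it was above background in both stimulated replicates and in no unstimulated one. A separate fall lay just beyond the window. The probe 938 bp downstream read 8.35 and 7.80 unstimulated and 2.10 and 3.30 stimulated, and the probe at 1092 bp read 7.16 and 7.15 against 0.15 and 0.23. Here the SMAD3 IP changed by -6.06 and -7.61 and the mock IP by -0.76 and -0.71. The mean of 3 probes around 1092 bp was 5.71 in unstimulated cells, the highest of the members and higher than in 99.3% of genes (median 0.93), and 1.59 after stimulation. The next highest 3-probe means were 2.90 for ADAMTS1, 2.70 for MMP15 and 2.56 for ADAMTS17.

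Of the 7 proteoglycanase windows 1 rose and 3 fell. ADAMTS4 fell from -0.04 and -0.10 to -0.78 and -1.01 (-0.82 ± 0.18, adjusted p = 0.00863), with 1 of 3 window probes called. ADAMTS5 fell from 0.61 and 0.68 to -0.23 and -0.03 (-0.77 ± 0.18, adjusted p = 0.0106), and 7 of its 12 window probes fell while 2 rose. Without the second unstimulated replicate the change of ADAMTS5 was -0.73 and missed the threshold. ADAMTS1 differed by -0.44 ± 0.18, which missed the threshold (adjusted p = 0.0832). Just beyond the window, its probe at 822 bp fell from 7.32 and 6.78 to 3.11 and 3.34 and stayed above the array median. The mean of 3 probes around it was 2.87 unstimulated and 2.27 stimulated.

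ADAMTS2, a procollagen N-proteinase, fell from 1.15 and 1.13 to 0.55 and 0.24 (-0.74 ± 0.19, adjusted p = 0.0156). All 4 values were above the array median, and 4 of 10 window probes fell while 0 rose. Leaving out 1 replicate ended the call for 3 of the 4 replicates, with changes of -0.75 to -0.58. The largest fall was outside the window, at 2055 bp downstream, a change of -7.52 with the mock IP 9.93 higher. ADAMTS18 was among the highest windows in both conditions, with 1.03 and 1.06 before and 0.81 and 0.97 after stimulation, and its change did not pass the test (-0.16 ± 0.18, adjusted p = 0.487). In ADAMTS10 the probe 29601 bp downstream of the annotated start rose from -3.37 and -3.73 to 4.98 and 4.46, a change of 8.27 ± 0.29, with the SMAD3 IP higher by 4.23 and the mock IP lower by 4.11.

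Among the 24 called member windows, the SMAD3 channel moved more than the mock channel in 9 and the mock channel more in 15. In 7 of the 24 the SMAD3 channel moved against the direction of the ratio, compared with 2994 of 8402 called windows over all genes. Over all called windows the SMAD3 channel moved more in 38.0%. Among the 300 called member probes it did so in 137 (45.7%), and among all called probes in 42.0%. The SD of the change over the 509 measured member probes was 2.10 in the mock channel and 1.68 in the SMAD3 channel. For all measured probes it was 2.27 and 1.77. Among the members with the largest window changes, MMP16, MMP7 and MMP14 changed mainly in the SMAD3 IP, and TIMP4, MMP19, MMP12 and ADAMTS17 mainly in the mock IP. ADAMTS8 and MMP10 also moved more in the mock IP (1.16 and -1.22) than in the SMAD3 IP (-0.64 and 0.64). MMP20 and TIMP3 were more evenly divided, with SMAD3 IP changes of -1.09 and -0.77 and mock IP changes of 0.88 and 0.89.

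**Figure D4:**
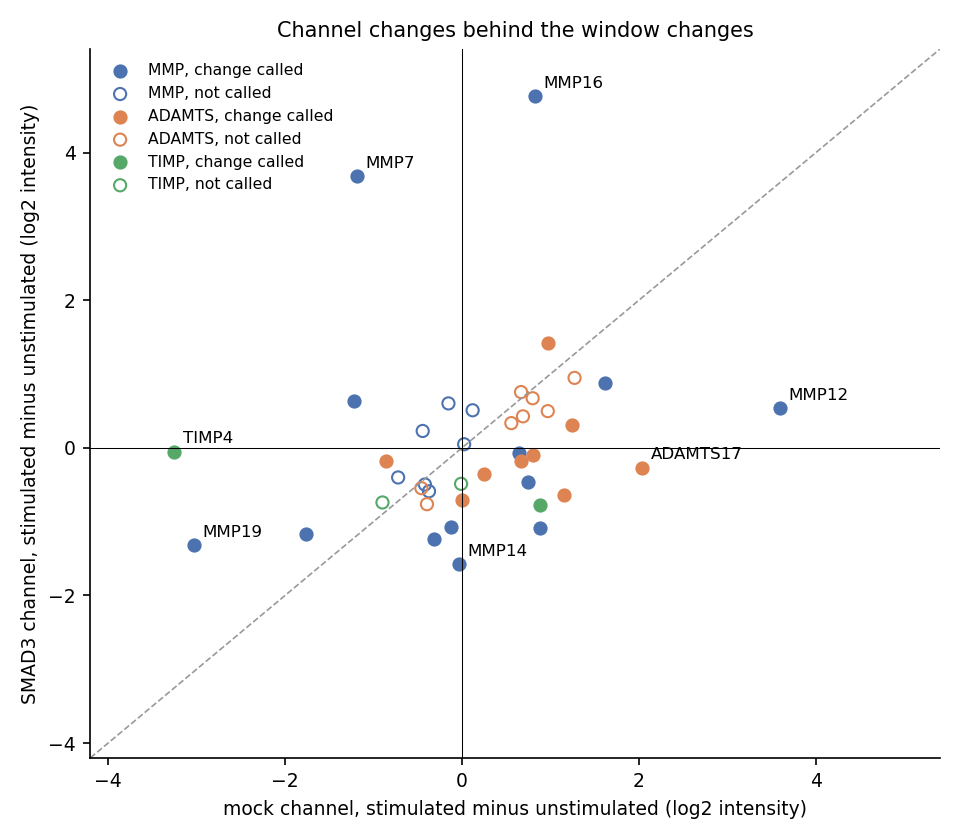
Change of the SMAD3 IP channel against the change of the mock IP channel after stimulation for the 41 windows. Each value is the mean log2 intensity of the window relative to the median of that channel on the array. Filled symbols are called changes, open symbols are not called, and on the dashed line both channels change alike. MMP16 lies high at little change in the mock IP (4.76 against 0.82), whereas TIMP4 lies far left at little mean change in the SMAD3 IP (-0.05 against -3.25). The single window probes of TIMP4 ranged from -2.90 to 1.39 in the SMAD3 IP.

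Single probes of the members differed within a gene. Of the 509 measured probes 126 rose and 174 fell, 58.9% in all, against 53.9% of all probes. In 33 of the 37 genes with at least 2 called probes, probes rose and fell in the same gene. Only MMP7 had rises alone, and ADAMTS3, MMP12 and MMP20 had falls alone. Within the window, the called probes went one way in 9 of 30 genes. In MMP16, MMP19, TIMP4 and ADAMTS19 they all rose, and in TIMP3, MMP20, ADAMTS2, ADAMTS3 and ADAMTS7 they all fell. Neither count was made over all genes. Among all measured probes 23.2% rose and 30.7% fell, so mixed directions are not shown to be particular to the members. Adjacent measured probes at most 150 bp apart had changes that correlated with r = 0.23 over 153 member pairs and r = 0.36 over all 45196 pairs. At 300 to 700 bp the values were 0.09 over 90 member pairs and 0.11 over all pairs. Adjacent probes share chromatin fragments and arrays, and the correlations are a description.

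Genes that act together with these enzymes, or are cut by them, were counted in the same test. Of 30 tested partners (activators, other inhibitors and related proteases), 9 windows rose and 9 fell. RECK, a membrane-bound inhibitor of MMPs, rose by 2.84 ± 0.26 (adjusted p = 0.000172), ADAM9, a cell surface sheddase, rose by 2.01 ± 0.18, and PLAT, which activates plasminogen, fell by 4.84 ± 0.18. Of 24 tested substrates 5 rose and 8 fell. ACAN, the aggrecan core protein cut by ADAMTS4 and ADAMTS5, rose by 3.94 ± 0.22, and VWF, the substrate of ADAMTS13, fell by 4.91 ± 0.33. The ADAMTS13 window itself changed by -0.21 ± 0.19 (adjusted p = 0.388). The shares called, 60% and 54.2%, stand beside 53.6% of all windows.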

How the data were processed

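SMAD3 IP (Cy5) and mock IP (Cy3) of unstimulated and TGFβ1-stimulated A549 cells were measured on 8 promoter arrays. The deposited scanner tables give each spot's intensity in both channels, from Agilent Feature Extraction 9.5.1.1 per the submitters' processing notes. These processed intensities had been background-subtracted, detrended and scaled per dye within an array, with surrogate values for dim spots. A deposited series matrix holds the log2 ratio of the same signals (largest difference 3.13e-06). Groups and replicate numbers came from the sample titles. All arrays were scanned on the same day, so no scan batch could be tested. The probe annotation names no genome build, and only distances to the annotated start are printed.

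Control spots and 1404 outlier probes were left out. Measured probes (160926) were well above background in both channels in all 4 replicates. Window means (15662 windows) and single probes were fitted with limma 3.58.1 in R 4.3.3 (lmFit, eBayes, Benjamini-Hochberg over all windows or all probes at 0.05). Only the number of arrays and the signal over background set the precision, since no counts lie behind the values. The study's peak program was not used here. Scripts were tested on simulated data. There, a log2 change of 4 in 200 of 160926 probes was recovered at 0% of them, and a change of 2 in 80463 probes at 87.8%. For windows, a change of 2 was recovered at 62.5% with 200 of 15662 changed, and at 97.2% with 7831 changed. Recovery thus depended on how many probes or windows changed. Sequences and figures used Python 3.11.15, pandas 2.3.3, numpy 2.4.6 and matplotlib 3.10.9.

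Named genes are TIMP1 to TIMP4, MMP1, MMP2, MMP7, MMP9, MMP12, MMP14, ADAMTS1, ADAMTS4 and ADAMTS5, the 6 highest and 6 lowest window changes, the 4 highest and 4 lowest windows per condition, the 6 largest probe changes per direction among called probes without overlap, and the 4 highest 3-probe means per condition. Genes in counts of 5 or fewer, and the partners, substrates and ADAMTS13 given with values, were chosen after their values were seen. So were the stretches of neighbouring probes described for MMP16, MMP9, TIMP3, TIMP4, ADAMTS17 and ADAMTS8. The members and both lists were chosen with earlier results of these data known. Alternatives covered normexp (offset 50), loess, the uncentred series matrix, the dim-probe filter, the window, the summary and the number of probes, a replicate block, separate slides and each left-out replicate. Centring on measured probes was added after seeing the data. The deviations of same-numbered replicates correlated with r = 0.000757 and 0.0273 over the probes of the 2 slides, 0.118 over window means and 0.137 over member probes. With only 2 numbers, and no label that ties them, they were not treated as pairs.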

Additional observations from a re-analysis of the deposited data

Results flagged for a closer look

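In 7 of the 41 member windows (17.1%) the log2 ratio was called on opposite sides of the array median in the 2 conditions and the change itself was called; over all windows this share was 10.1%. The change of MMP7 was 4.80, that of MMP16 4.05 and that of TIMP4 3.31, from below to above the array median. The change of MMP17 was -1.27, that of MMP14 -1.61, that of ADAMTS8 -1.87 and that of ADAMTS17 -2.38, from above to below it. MMP7 and MMP14 rest on 1 probe each, and the call of the change was lost in 4 alternatives for MMP14 and in 3 for MMP17. Which side of the array median a window lies on moves with the centring, whereas the difference between conditions is the tested value.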

How the results depend on the processing

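Of the 24 called member windows, 3 (MMP16, TIMP4 and ADAMTS17) were called in every alternative, 4 lost the call only with normexp, and 5 changed sign in some alternative. With normexp 2 windows rose and 1 fell (limma), 0 were higher and 2 lower unstimulated (4 higher at an unadjusted p under 0.05), 4 were higher and 4 lower stimulated, and 13 probes rose and 24 fell; the cause was not tested. Over all windows normexp called 4.33% higher and 5.42% lower for the change, 5.99% and 4.24% unstimulated, and 17.3% and 10.3% stimulated, and over all probes 4.64% and 6.64%. The side of 0 moved with the centring. After loess 22 windows were higher and 9 lower unstimulated, and 24 and 10 stimulated, against 55.7% and 20.4%, and 56.1% and 21.2%, of all windows. Without centring these were 21 and 9, and 24 and 11, against 52.2% and 22.4%, and 52.2% and 23.6%, of all windows. With the median of measured probes as 0, chosen after seeing the data, 20 windows were higher in each condition, against 48.1% and 47.3% of all windows. Without the filter on dim probes 3 of 43 windows were higher stimulated, against 16.0% of all windows. Within 500 bp of the start 10 of 36 were lower unstimulated, against 31.6% of all windows. Leaving out 1 replicate gave 5 to 6 windows that rose, and 4 to 8 that were higher stimulated, the 4 without either stimulated replicate. With the replicate number as a block, 9 windows rose and 17 fell, and 120 probes rose and 172 fell. MMP26, MMP27 and TIMP1 gained the call (adjusted p = 0.0201, 0.0282 and 0.0386 in limma) and ADAMTS12 lost it (0.0533). For the block and the left-out replicates no share over all windows or probes is given, so their counts have no background beside them.

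Changes of these genes turned sign. ADAMTS18 had 0.21 over all annotated probes and 0.031 with normexp, and ADAMTS2 0.0797 with normexp. MMP10 had -0.35 without the filter and -1.60 with 1 channel above background. MMP15 had -0.31 over all annotated probes, -0.20 with normexp and -0.00596 within 500 bp. MMP2 had 0.11 centred on measured probes, 0.0947 after loess, 0.0903 without centring, 0.14 as a median, 0.73 without the filter and 0.51 with 1 channel. MMP26 had -0.00200 with normexp. MMP27 and MMP8 had -0.0385 and 0.0825 without the filter. TIMP2 had -0.18 with normexp and -1.18 within 500 bp. Leaving out 1 replicate gave ranges of -0.69 to 0.12 for MMP1, -0.18 to 0.0907 for MMP2, -0.0542 to 1.26 for MMP27, -0.0122 to 0.515 for MMP9 and -0.17 to 0.35 for TIMP2, which was also -0.0331 without the first unstimulated replicate. A correction for probe base composition was not run, since no probe sequences were used here. Signal over background limits the chromosome 11 cluster most.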
